A study of Homo sapiens with 24 samples.

Results

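The genes described here build, bind, coat, fuse and break down the stored fat of a liver cell. There were 10 of them, DGAT1, DGAT2, ACSL1, ACSL3, ACSL5, FABP1, PLIN2, CIDEB, CIDEC and PNPLA2, out of 18915 genes with a deposited read count, and they were found by gene symbol. All 10 were among the 12685 genes that passed the filter on low counts. The set was selected on measured values in part, because DGAT2, FABP1 and ACSL5 had been chosen after they were seen to fall. The comparison in which they fell was not named, so no p-value is given for these 3 genes, nor for any of the 10 in bortezomib versus DMSO. Counts of calls that include such values are descriptions and support nothing.

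The cells were HepG2, an established human liver cancer line grown in serum and high glucose, and a single line stands for hepatoma here. Cells of all 6 groups were in fresh medium for 10 h with the vehicle (DMSO), 50 nM bortezomib, 20 µM nelfinavir, 50 nM ISRIB, or bortezomib combined with either of the other drugs at the same doses, in 4 biological replicates each. Bortezomib inhibits the proteasome, nelfinavir is an HIV protease inhibitor that also makes cells accumulate phosphorylated eIF2α, and ISRIB makes cells insensitive to phosphorylated eIF2α. The co-treatments ask how raising or neutralising this stress signal alters the response to bortezomib.

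A fatty acid that enters a hepatocyte is first joined to coenzyme A by a long-chain acyl-CoA synthetase (the ACSL enzymes). Acyl chains are then added to a glycerol backbone, and a diacylglycerol acyltransferase (DGAT1 or DGAT2) adds the last chain to make triglyceride. The triglyceride is either kept in lipid droplets, which carry coat proteins such as PLIN2, or loaded onto lipoproteins and secreted. Adipose triglyceride lipase, the product of PNPLA2, takes the first step in breaking it down again.

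The stretches before the transcription start of 3 of these genes are shown because each holds the nuclear receptor half-site AGGTCA, the core of the elements bound by PPARα and HNF4α, on one of its strands. Sequences are from RefSeq on GRCh38.p14, where 8 of the 10 genes were matched, DGAT1 and DGAT2 being the others. Each is the 250 bases before the start, read 5′ to 3′ on the strand of the gene, with the searched motifs in capitals. The regions are chr2:88128063-88128312 (minus strand) for FABP1, chr10:112375018-112375267 (plus strand) for ACSL5 and chr11:818664-818913 (plus strand) for PNPLA2.
FABP1: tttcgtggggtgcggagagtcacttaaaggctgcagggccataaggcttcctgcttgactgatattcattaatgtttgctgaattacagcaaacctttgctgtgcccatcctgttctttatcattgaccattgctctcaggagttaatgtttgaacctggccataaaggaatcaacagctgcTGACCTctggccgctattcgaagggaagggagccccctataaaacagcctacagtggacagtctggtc
ACSL5: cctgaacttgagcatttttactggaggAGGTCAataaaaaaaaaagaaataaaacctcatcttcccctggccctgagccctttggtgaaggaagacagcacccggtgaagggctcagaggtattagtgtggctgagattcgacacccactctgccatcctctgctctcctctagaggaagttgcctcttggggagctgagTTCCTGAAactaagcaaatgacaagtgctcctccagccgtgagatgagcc
PNPLA2: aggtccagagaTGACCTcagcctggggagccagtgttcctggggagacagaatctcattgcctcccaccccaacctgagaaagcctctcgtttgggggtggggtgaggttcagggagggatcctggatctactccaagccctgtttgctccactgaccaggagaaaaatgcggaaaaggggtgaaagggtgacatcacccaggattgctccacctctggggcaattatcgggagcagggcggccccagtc
The half-site stood 68 to 63 bases before the start in FABP1 and 239 to 234 bases before it in PNPLA2, both on the opposite strand and so written TGACCT, and 223 to 218 bases before it in ACSL5. ACSL5 also held the pair of heat shock half-elements TTCNNGAA, 50 to 43 bases before the start, and CIDEC held one 122 to 115 bases before its start. Neither the C/EBP-ATF composite TGATGNAA, which is the site bound by ATF4, nor the cyclic AMP response element TGACGTCA was found in the 8 stretches. On both strands of 35116 such stretches, 12.1% held AGGTCA, 6.62% TTCNNGAA, 3.14% TGATGNAA and 1.65% TGACGTCA, and no 2 matches in the 8 stretches overlapped. A match describes the letters only. For PNPLA2 and CIDEC the bases shortly after the start were not found in a transcript of the gene. Positions relative to those starts are less certain.

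Levels are given in CPM, the count scaled to library size, after TMM scaling, which is a scaling that assumes most genes do not change. Depth was 5154533 to 6943164 counts per library. The share of mitochondrially encoded counts was 21.5% ± 1.32 in DMSO and 33.8% ± 1.19 in bortezomib (SD, n = 4). It was 27.2% ± 2.26 with nelfinavir added and 36.1% ± 3.13 with ISRIB added, and its part in the results was not tested. All 10 hepatocyte markers looked at were detected in every group. Their sum was 13200 to 14500 CPM in DMSO and 10300 to 10900 CPM in bortezomib. It was 7030 to 8760 CPM in bortezomib with nelfinavir and 9650 to 11200 CPM in bortezomib with ISRIB. The markers did not move alike from DMSO to bortezomib. Means went from 1220 to 1390 CPM for TF, from 481 to 484 CPM for KRT18 and from 190 to 210 CPM for KRT8. Those of ALB, AFP, APOA1, APOB, TTR, SERPINA1 and HNF4A were lower with bortezomib. Of the adipocyte markers, PLIN1 was the only one of 4 counted and summed to at most 0.634 CPM in a library, and the 3 endothelial markers and PTPRC were not among the genes counted. LYZ, listed as a leukocyte marker, and VIL1, listed as an intestinal marker, were at 374 and 191 CPM in DMSO and at 108 and 54.7 CPM in bortezomib. The part of these markers in the results was not tested. Scaling by library totals alone lowered every bortezomib versus DMSO change by about the same amount, the median gene moving by -0.50 on the log2 scale, and moved that median by up to 0.06 in the other comparisons.

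**Figure D1:**
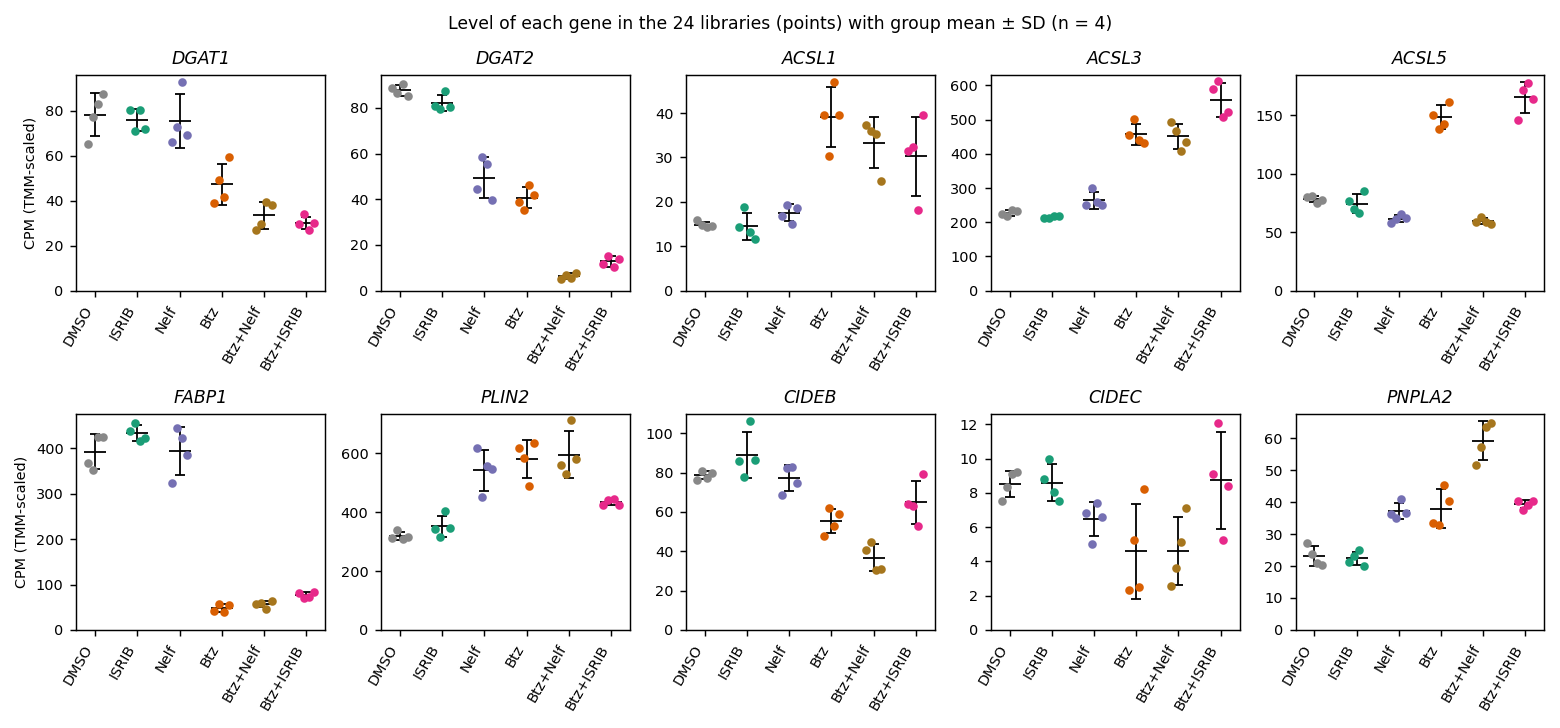
Level of each of the 10 genes in CPM (vertical axes, each starting at 0) in the 4 libraries of each treatment (coloured points), with the mean and SD as black bars. DGAT2 is lowest in the co-treatment of bortezomib (Btz) with nelfinavir (Nelf), at 5.28 to 7.88 CPM, FABP1 is below 83 CPM in all groups with bortezomib, and ACSL5 is high with bortezomib except where nelfinavir is also present.

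DGAT2, the acyltransferase that works mainly on newly made fatty acids, was lower in every group with bortezomib or nelfinavir. In DMSO its 4 libraries stood at 88.7, 86.4, 90.4 and 85.3 CPM. With nelfinavir they stood at 44.6, 58.5, 55.3 and 39.7 CPM, and with bortezomib at 38.7, 35.5, 46.3 and 42.1 CPM. Neither of these groups overlapped DMSO, while the nelfinavir and bortezomib groups overlapped each other. Adding nelfinavir to bortezomib brought the level to 5.28, 7.04, 5.70 and 7.88 CPM, and adding ISRIB to 11.6, 15.3, 10.3 and 13.8 CPM. Both co-treatments lay below bortezomib alone with no overlap, and they did not overlap each other. ISRIB by itself left DGAT2 at 79.6 to 87.3 CPM, which overlapped DMSO. On the log2 scale the difference (± SE) was -1.11 ± 0.122 for bortezomib versus DMSO, -0.82 ± 0.118 for nelfinavir versus DMSO and -0.10 ± 0.115 for ISRIB versus DMSO. Against bortezomib alone it was -2.64 ± 0.156 with nelfinavir, a 6.25-fold lower level, and -1.67 ± 0.143 with ISRIB, a 3.19-fold lower level. In a bulk sample, fewer cells that express a gene and less of its RNA per cell cannot be told apart. The counts behind these levels were 646 to 763 per library in DMSO and 25 to 42 in bortezomib with nelfinavir. DGAT2 lies at chr11:75470557-75512580 on the plus strand of GRCh37 (ENSG00000062282), and the antisense RNA over its 3′ end (ENSG00000254814) had at most 1 count in a library.

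The difference that nelfinavir or ISRIB made to DGAT2 was larger on top of bortezomib than against DMSO. The interaction, defined as the change that a drug made on top of bortezomib minus its change against DMSO, was -1.82 ± 0.197 for nelfinavir and -1.58 ± 0.184 for ISRIB on the log2 scale. For ISRIB the change with bortezomib present stood beside a change against DMSO whose 95% interval was -0.32 to 0.13. DGAT2 thus had the lowest levels of the 6 groups in both co-treatments.

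DGAT1, the acyltransferase that also re-esterifies fatty acids in the endoplasmic reticulum, was lower with bortezomib and lower again with either co-treatment. DMSO libraries stood at 65.4, 77.5, 82.9 and 87.5 CPM and bortezomib libraries at 39.1, 49.1, 41.8 and 59.6 CPM, with no overlap and a log2 difference of -0.72 ± 0.133. With nelfinavir added they stood at 27.1, 29.5, 39.3 and 38.1 CPM, and with ISRIB added at 29.8, 33.9, 27 and 29.9 CPM. The group with ISRIB added did not overlap bortezomib alone, while that with nelfinavir added reached just above its lowest library. DGAT1 fell by 0.65 on the log2 scale with ISRIB added to bortezomib (SE 0.143, adjusted p = 0.00188) and by 0.50 with nelfinavir added (SE 0.141, adjusted p = 0.00767), in the quasi-likelihood F-test of edgeR after Benjamini-Hochberg adjustment, which gives all adjusted p-values here. The second call was lost without bortezomib replicate 4 (log2 change -0.33, adjusted p = 0.0976), without co-treatment replicate 1 (-0.36, adjusted p = 0.07) and without co-treatment replicate 2 (-0.39, adjusted p = 0.0533). Neither drug moved DGAT1 detectably against DMSO, with 95% intervals of -0.30 to 0.19 for nelfinavir and -0.29 to 0.21 for ISRIB. The interaction with bortezomib missed the threshold for nelfinavir (-0.44 ± 0.190, adjusted p = 0.0986) and for ISRIB (-0.61 ± 0.191, adjusted p = 0.0577). The ISRIB interaction passed it under DESeq2 (adjusted p = 0.0317) and 5 other settings. The last 500 bases of DGAT1 transcripts (ENSG00000185000) share up to 444 bases with ENSG00000254690 on the same strand. That gene does not cover the annotated 3′ end of DGAT1. It was counted separately, at 11.8 CPM in DMSO and 2.20 CPM in bortezomib. HSF1 covers the end on the opposite strand and was at 30.2 CPM in DMSO and 48.9 CPM in bortezomib. Whether HSF1 reads were kept apart from DGAT1 reads is not known, as the sources used here give no strand setting for the counting. A strand setting would not separate ENSG00000254690, and the part of either gene's reads in the DGAT1 values was not tested.

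The 3 long-chain acyl-CoA synthetases were all higher with bortezomib, and with nelfinavir added ACSL5 was below its DMSO level while ACSL1 and ACSL3 were not. ACSL5, which sits on mitochondria and the endoplasmic reticulum and is abundant in liver and intestine, stood at 80.1, 81.2, 75.2 and 77.5 CPM in DMSO. Bortezomib libraries stood at 150, 138, 142 and 161 CPM, and bortezomib with nelfinavir libraries at 58.3, 62.9, 58.7 and 56.7 CPM. Bortezomib lay above DMSO and the co-treatment lay below both, with no overlap. Nelfinavir alone gave 57.6, 61.4, 65.3 and 61.8 CPM, below DMSO and overlapping the co-treatment. With ISRIB added to bortezomib ACSL5 stood at 146, 171, 177 and 164 CPM, overlapping bortezomib alone. The log2 differences were 0.91 ± 0.0882 for bortezomib and -0.35 ± 0.0888 for nelfinavir versus DMSO, -1.32 ± 0.0914 for nelfinavir added to bortezomib and 0.16 ± 0.0873 for ISRIB added to bortezomib. Its interaction of nelfinavir with bortezomib was -0.97 ± 0.127. ACSL5 was therefore below DMSO in the 2 groups that received nelfinavir, whereas bortezomib by itself gave a 1.88-fold higher level. ACSL5 lies at chr10:114133874-114188137 on the plus strand of GRCh37 (ENSG00000197142) and shares 145 bases of its 3′ end with ZDHHC6 on the opposite strand. ZDHHC6 changed by 0.66 with bortezomib, -0.27 with nelfinavir and -0.62 with nelfinavir added to bortezomib on the log2 scale, and the part of its reads in the ACSL5 values was not tested.

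ACSL3, an acyl-CoA synthetase found on growing lipid droplets, stood at 225, 218, 236 and 234 CPM in DMSO. In bortezomib it stood at 455, 501, 441 and 432 CPM, and with ISRIB added at 590, 612, 508 and 522 CPM. The 3 groups did not overlap. Bortezomib gave a log2 difference of 1.00 ± 0.0814 against DMSO, a 2.01-fold higher level. ACSL3 rose by 0.29 on the log2 scale with ISRIB added to bortezomib (SE 0.0805, adjusted p = 0.0153). This call was lost with library totals alone (adjusted p = 0.0745), with only the groups compared (adjusted p = 0.0559), and without bortezomib replicate 3 or 4 or co-treatment replicate 1 or 2 (adjusted p = 0.0503 to 0.073). Nelfinavir added to bortezomib left ACSL3 at 407 to 493 CPM, a log2 difference of -0.02 with a 95% interval of -0.18 to 0.14. Against DMSO, nelfinavir gave 249 to 300.0 CPM with no overlap and a log2 difference of 0.21 ± 0.0808, which missed the threshold (adjusted p = 0.0615) and passed it in DESeq2 (adjusted p = 0.0422). The last 500 bases of ACSL3 (ENSG00000123983, chr2:223725660-223809357, plus strand, GRCh37) hold a stretch of 80 to 97 bases at 97% identity or more to transcripts of other genes, so single reads there are uncertain.

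ACSL1, the main acyl-CoA synthetase of liver and fat, was the least counted of these synthetases. It stood at 15.8, 14.8, 14.3 and 14.5 CPM in DMSO, at 39.6, 30.4, 46.9 and 39.5 CPM in bortezomib, at 37.2, 35.9, 35.2 and 24.8 CPM with nelfinavir added and at 31.4, 32.3, 18.1 and 39.5 CPM with ISRIB added. Bortezomib lay above DMSO without overlap, by 1.39 ± 0.180 on the log2 scale or 2.63-fold. Both co-treatments overlapped bortezomib alone and neither difference passed the test, with a 95% interval of -0.58 to 0.11 for nelfinavir and -0.72 to -0.02 for ISRIB (adjusted p = 0.177). ACSL1 (ENSG00000151726) lies at chr4:185676749-185747972 on the minus strand of GRCh37.

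FABP1, the liver fatty acid binding protein that carries fatty acids through the cytosol, showed the widest gap of the 10 genes between DMSO and bortezomib. Its DMSO libraries stood at 367, 352, 425 and 425 CPM and its bortezomib libraries at 42.1, 58.0, 40.3 and 54.7 CPM. The log2 difference was -3.01 ± 0.119, an 8.03-fold lower level. Nelfinavir and ISRIB by themselves gave 323 to 445 and 416 to 455 CPM, so both overlapped DMSO. Added to bortezomib, nelfinavir gave 57.5, 59.3, 46.8 and 64.6 CPM and ISRIB gave 81.0, 69.9, 71.6 and 82.9 CPM. The ISRIB co-treatment lay above bortezomib alone and above the nelfinavir co-treatment without overlap, and still far below DMSO. Its log2 difference from bortezomib was 0.64 ± 0.119, against 0.22 ± 0.120 for nelfinavir. FABP1 (ENSG00000163586) lies at chr2:88422501-88427581 on the minus strand of GRCh37, and no annotated gene overlaps it.

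PLIN2, which coats lipid droplets and shields them from lipases, was raised by nelfinavir alone as well as being high with bortezomib. It stood at 312, 339, 309 and 316 CPM in DMSO and at 619, 451, 555 and 545 CPM with nelfinavir. The groups did not overlap, and the rise was 0.76 on the log2 scale (SE 0.0972, adjusted p = 2.79e-07) or 1.70-fold. Bortezomib gave 616, 584, 487 and 634 CPM, a log2 difference of 0.86 ± 0.0976 from DMSO. With both drugs the libraries stood at 559, 530, 713 and 579 CPM and overlapped both single treatments. Nelfinavir added to bortezomib made a log2 difference of 0.04 with a 95% interval of -0.15 to 0.23, and the interaction was -0.73 ± 0.137 (adjusted p = 0.000203). The increase with nelfinavir was thus measured in the absence of bortezomib and was smaller in its presence. ISRIB added to bortezomib gave 424, 441, 445 and 425 CPM, below bortezomib alone without overlap. PLIN2 fell by 0.42 on the log2 scale in this comparison (SE 0.0974, adjusted p = 0.00338), and the interaction of ISRIB with bortezomib was -0.56 ± 0.137 (adjusted p = 0.0119). It remained above the DMSO libraries. PLIN2 (ENSG00000147872) lies at chr9:19108373-19149288 on the minus strand of GRCh37.

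PNPLA2, which encodes adipose triglyceride lipase, rose with nelfinavir whether or not bortezomib was present. It stood at 27.3, 23.8, 21.1 and 20.2 CPM in DMSO and at 36.2, 35.1, 40.9 and 36.6 CPM with nelfinavir. The rise was 0.68 on the log2 scale (SE 0.122, adjusted p = 7.62e-05). Bortezomib libraries stood at 33.4, 32.8, 45.4 and 40.4 CPM, and with nelfinavir added they stood at 51.6, 57.2, 63.5 and 64.7 CPM. Nelfinavir thus gave the highest PNPLA2 levels on top of bortezomib, and neither pair of groups overlapped. The rise on adding it was 0.64 (SE 0.122, adjusted p = 0.000133), and its interaction with bortezomib was -0.04 with a 95% interval of -0.38 to 0.29. ISRIB added to bortezomib left PNPLA2 at 37.5 to 40.5 CPM, a log2 difference of 0.05 with an interval of -0.19 to 0.30. Bortezomib alone gave a log2 difference of 0.71 ± 0.125 against DMSO, which was 0.21 with library totals alone. PNPLA2 (ENSG00000177666) lies at chr11:818914-825573 on the plus strand of GRCh37.

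CIDEB, which helps load triglyceride onto very low density lipoproteins, was lower with bortezomib and fell further with nelfinavir added. It stood at 76.3, 80.7, 77.3 and 79.7 CPM in DMSO, at 47.9, 61.9, 52.6 and 59.0 CPM in bortezomib and at 40.8, 44.5, 30.6 and 31.0 CPM with nelfinavir added. These 3 groups did not overlap. The bortezomib difference was -0.50 ± 0.123 on the log2 scale, and adding nelfinavir changed it by -0.60 (SE 0.130, adjusted p = 0.000715). Nelfinavir alone left it at 68.8 to 82.7 CPM, and the interaction was -0.57 ± 0.176 (adjusted p = 0.0197). That interaction was lost without bortezomib replicate 2 or 4 or without co-treatment replicate 3 or 4, with adjusted p = 0.0539 to 0.0689. ISRIB added to bortezomib gave 52.8 to 79.2 CPM, overlapping bortezomib alone, with a 95% interval of -0.02 to 0.47. All 500 bases of the CIDEB 3′ end (ENSG00000136305, chr14:24774393-24780636, minus strand, GRCh37) lie within NOP9 on the opposite strand. NOP9 differed by -0.15 with bortezomib and by 0.47 on adding nelfinavir to it. The CIDEB end also shares 469 bases with LTB4R2, which was not among the genes counted. The part of reads from either gene in the CIDEB values was not tested.

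CIDEC, which fuses lipid droplets in fat cells and steatotic liver, was the least counted of the 10, with 11 to 76 counts per library. It stood at 7.55, 8.33, 9.10 and 9.19 CPM in DMSO and at 2.35, 5.24, 2.53 and 8.21 CPM in bortezomib, where replicate 4 overlapped DMSO. With ISRIB added it stood at 9.13, 12.1, 5.26 and 8.39 CPM. The log2 difference of that co-treatment from bortezomib was 0.93 ± 0.317, the libraries overlapped, and it missed the threshold (adjusted p = 0.0503). It passed in DESeq2 (adjusted p = 0.0256), with the replicate block (adjusted p = 0.0396), with no filter (adjusted p = 0.0287) and with the default filter (adjusted p = 0.0491). It did not pass with RLE factors, with library totals alone or with only the groups compared. Over all alternatives it ran from 0.71 to 1.35, with adjusted p up to 0.187. Of the fits without 1 replicate, it passed without bortezomib replicate 4 (1.35, adjusted p = 0.00698) and without co-treatment replicate 3 (1.11, adjusted p = 0.0186). It passed in no other fit of that kind. The log2 difference of CIDEC between bortezomib and DMSO was -0.89 ± 0.306. CIDEC (ENSG00000187288) lies at chr3:9908395-9921939 on the minus strand of GRCh37.

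**Figure D2:**
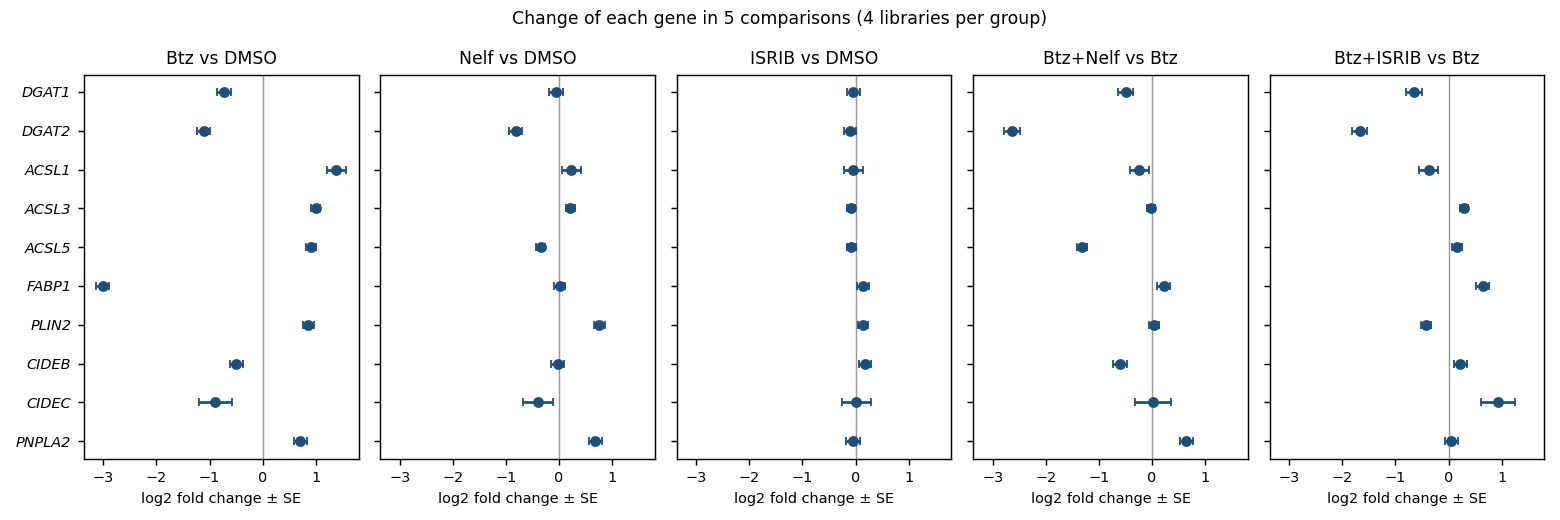
Log2 fold change (horizontal axis, with SE as bars) of the 10 genes in 5 comparisons, 4 libraries per group. Bortezomib (Btz) versus DMSO puts 5 genes on each side of 0, ISRIB versus DMSO keeps all 10 between -0.10 and 0.18, and adding nelfinavir (Nelf) or ISRIB to bortezomib sets DGAT2 furthest below 0, at -2.64 and -1.67.

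Across the 10 genes the response to bortezomib was split. DGAT1, DGAT2, FABP1, CIDEB and CIDEC were below DMSO, and ACSL1, ACSL3, ACSL5, PLIN2 and PNPLA2 were above it. Since this contrast may be the one that selected members, the split of 5 higher and 5 lower is a description, and nothing is read from it. Of all tested genes, 27.6% were called higher and 25.8% lower. With library totals alone PNPLA2 was the gene nearest to DMSO.

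The 7 genes with no stated prior observation allow counts in the other comparisons. PLIN2 and PNPLA2 were higher with nelfinavir than with DMSO and none was lower, where 10.4% of all genes were called higher and 8.84% lower. With ISRIB alone none of the 7 was called, and 0% of all genes were called by edgeR. An unadjusted p under 0.05, a cut-off that some genes pass with no effect, was seen for 703 of 12685 genes. DESeq2 called 19 and gave no adjusted p-value for 8607. On adding nelfinavir to bortezomib PNPLA2 rose and DGAT1 and CIDEB fell, against 15.6% higher and 13.4% lower among all genes. On adding ISRIB to bortezomib ACSL3 rose and DGAT1 and PLIN2 fell, against 6.91% and 5.34%. Both co-treatment comparisons use the same bortezomib libraries, and the comparisons with DMSO share the DMSO libraries.

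The interactions show where a drug acted differently in the presence of bortezomib. PLIN2 and CIDEB were called for nelfinavir, both in the lower direction, where 9.74% of all genes were called higher and 10% lower. PLIN2 was the one called for ISRIB, again lower, where 2.93% were called higher and 1.89% lower. For ISRIB, DGAT1 and ACSL3 had adjusted p = 0.0577 and 0.0511, and both were called with the replicate block (adjusted p = 0.0371 and 0.0373) and with DESeq2 (adjusted p = 0.0317 and 0.0216).

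**Figure D3:**
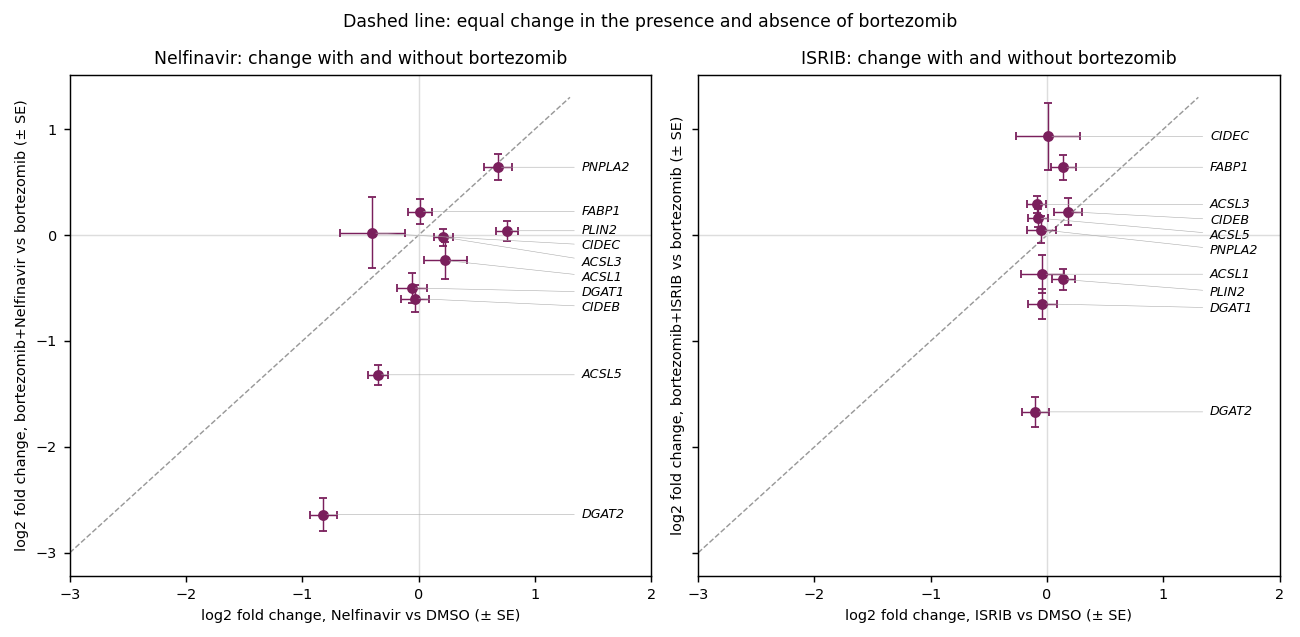
Log2 fold change on adding nelfinavir (left) or ISRIB (right) to bortezomib (vertical axis) against the change made by the same drug versus DMSO (horizontal axis), with SE as bars, for the 10 genes. Points below the dashed line had a lower value in the presence of bortezomib than in its absence, among them DGAT2 and PLIN2 in both panels and ACSL5 with nelfinavir, while PNPLA2 lies on the line for nelfinavir.

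The order of the 6 groups differed from gene to gene. For DGAT2 the order from high to low was DMSO, ISRIB, nelfinavir, bortezomib, bortezomib with ISRIB and bortezomib with nelfinavir, and the neighbours that overlapped were DMSO with ISRIB and nelfinavir with bortezomib. FABP1 had ISRIB, nelfinavir and DMSO overlapping at the top, then bortezomib with ISRIB by itself, and bortezomib with nelfinavir overlapping bortezomib at the bottom. ACSL5 had bortezomib with ISRIB and bortezomib overlapping at the top, DMSO and ISRIB in the middle, and nelfinavir and bortezomib with nelfinavir overlapping at the bottom. PNPLA2 had bortezomib with nelfinavir alone at the top, then bortezomib with ISRIB, bortezomib and nelfinavir in one overlapping run, then DMSO and ISRIB. PLIN2 had the 2 bortezomib groups without ISRIB and nelfinavir overlapping at the top, bortezomib with ISRIB by itself next, and ISRIB and DMSO at the bottom.

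Genes outside the lipid list whose log2 CPM followed these genes most closely over the 24 libraries were searched among 9206 genes with a mean of at least 5 CPM. The libraries share the treatments, so the correlations describe the treatment pattern. For DGAT2 they were EML4 (Pearson r = 0.954), C7orf50 (0.950) and KIF4A (0.948), and for FABP1 they were C2orf72 (0.986), AIFM1 (0.984) and SLC9A3R1 (0.981). For ACSL5 they were UGT1A8 (0.937), TFRC (0.932) and FAM192A (0.924), and for PLIN2 they were EIF2S2 (0.941), STC2 (0.939) and SHMT2 (0.937).

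A list of 124 other genes of fatty acid and triglyceride handling, in 7 roles, gives the setting for these 10. The list was chosen with earlier results of these data known, so its shares and p-values are descriptions and no independent support. Of the 105 that were tested, 22 (21%) were higher and 48 (45.7%) lower with bortezomib than with DMSO, beside 27.6% and 25.8% of all genes. Their median log2 change was -0.40, against 0.002 over all genes. With library totals alone the split was 12 higher and 67 lower. Nelfinavir gave 15 higher (14.3%) and 9 lower (8.57%), near the 10.4% and 8.84% of all genes, and ISRIB gave none in either direction. Adding nelfinavir to bortezomib gave 25 higher (23.8%) and 22 lower (21%), beside 15.6% and 13.4% of all genes. Adding ISRIB gave 19 higher (18.1%) and 8 lower (7.62%), beside 6.91% and 5.34%.

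Fatty acid uptake and binding, the role of FABP1, had 7 of 9 tested genes (77.8%) lower with bortezomib and none higher. Of all genes 25.8% were lower and 27.6% higher. The median log2 change of the role was -1.30. CD36, a fatty acid transporter, changed by -1.43 ± 0.168 (adjusted p = 1.04e-08). SLC27A2, a liver fatty acid transporter and very long chain acyl-CoA synthetase, fell further from 24.1 CPM with bortezomib to 12.5 CPM with nelfinavir added and 16.3 CPM with ISRIB added (adjusted p = 0.000216 and 0.0417). Its level in both co-treatments was thus below that with bortezomib alone.

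The role of acyl-CoA synthesis and hydrolysis held 6 tested synthetases other than ACSL1, ACSL3 and ACSL5, and 5 thioesterases, which split acyl-CoA again. With bortezomib 4 of the 6 synthetases were lower and none was higher, beside 25.8% and 27.6% of all genes. Of the thioesterases ACOT2 and ACOT13 were lower and ACOT9 was higher. ACSL6 stood at 5.64 CPM in DMSO, 1.92 CPM with nelfinavir and 0.715 CPM with bortezomib, and ACSL4, which prefers arachidonic acid, fell from 162 CPM in DMSO to 94.5 CPM with nelfinavir (adjusted p = 0.000339). ACSS2, which activates acetate, rose from 8.30 to 19.9 CPM with ISRIB added to bortezomib (adjusted p = 5.24e-06). It was also called higher on adding nelfinavir (log2 change 0.49, adjusted p = 0.043).

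Glycerolipid synthesis, the role of the DGAT enzymes, was mixed. With bortezomib 6 of 19 genes were higher (31.6%) and 9 lower (47.4%), beside 27.6% and 25.8% of all genes. LPIN1, a phosphatidate phosphatase that makes the diacylglycerol used by DGAT1 and DGAT2, rose from 18 to 71.9 CPM (log2 change 2.00 ± 0.126, adjusted p = 4.43e-15), and AGPAT9, the acyltransferase now named GPAT3, rose from 15.6 to 56.4 CPM. MOGAT2, which makes diacylglycerol from monoacylglycerol, fell from 49.9 to 10.9 CPM (adjusted p = 5.87e-14). AGPAT9 also rose with nelfinavir, to 28.5 CPM (adjusted p = 0.000369). Enzymes that feed triglyceride synthesis were therefore found on both sides, and DGAT1 and DGAT2 were on the lower side.

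Among lipid droplet coat and formation genes, 3 of 18 were higher (16.7%) and 6 lower (33.3%) with bortezomib, beside 27.6% and 25.8% of all genes. The droplet-associated METTL7A fell from 117 to 14.9 CPM (adjusted p = 5.43e-17). METTL7B fell from 28.8 CPM in DMSO to 16.7 CPM with nelfinavir (adjusted p = 0.000234) and from 13.6 to 4.41 CPM with nelfinavir added to bortezomib (adjusted p = 1.77e-07). C2orf43, the droplet-associated hydrolase now named LDAH, fell from 15.3 to 7.35 CPM in the latter comparison (adjusted p = 0.000202). PLIN3, another droplet coat protein, rose by 0.37 with nelfinavir (SE 0.104, adjusted p = 0.01), by 0.94 on adding nelfinavir to bortezomib (SE 0.105, adjusted p = 2.83e-08) and by 0.67 on adding ISRIB (SE 0.105, adjusted p = 3.02e-05). Its log2 difference between bortezomib and DMSO was -0.05 ± 0.105 (adjusted p = 0.716).

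Lipolysis and lipid turnover, the role of PNPLA2, had 2 of 16 genes higher (12.5%) and 6 lower (37.5%) with bortezomib, beside 27.6% and 25.8% of all genes. On adding nelfinavir to bortezomib 3 were higher (18.8%) and 1 lower (6.25%), beside 15.6% and 13.4% of all genes. ABHD5, the co-activator of adipose triglyceride lipase, rose on adding nelfinavir from 9.74 to 21.4 CPM (adjusted p = 0.000105), and PNPLA8, a phospholipase, from 36.6 to 75.8 CPM (adjusted p = 1.07e-06). The lipase gene and its co-activator gene were thus both called higher in that comparison. ABHD5 and PNPLA8 were also called higher on adding ISRIB (log2 changes 0.77 and 0.53, adjusted p = 0.0155 and 0.0122). PNPLA2 was not called there (0.05). PNPLA3 rose with ISRIB added to bortezomib from 10.9 to 23.8 CPM (adjusted p = 0.000148), close to its DMSO level of 25 CPM. LIPG, endothelial lipase, rose from 2.45 to 7.54 CPM (adjusted p = 0.00238). LIPG was low, reached the 5 CPM needed for naming only in the group with ISRIB added, and was also called higher on adding nelfinavir (1.00, adjusted p = 0.0403). With ISRIB added, 5 of the 16 (31.2%) were higher and none was lower, beside 6.91% and 5.34% of all genes. DDHD1, a phospholipase, fell from 10.2 CPM in DMSO to 5.2 CPM with nelfinavir (adjusted p = 0.00603).

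Triglyceride secretion, to which CIDEB belongs by function, had 5 of 14 genes higher (35.7%) and 4 lower (28.6%) with bortezomib. These shares stand beside 27.6% and 25.8% of all genes. The higher genes were P4HB, SURF4, TMEM41B, VMP1 and MIA2, and the lower ones were MTTP and the apolipoprotein genes APOC3, APOA4 and APOA5. MTTP, the transfer protein that lipidates apolipoprotein B, changed by -1.02 ± 0.130 with bortezomib (adjusted p = 4.58e-08) and fell further from 34.7 to 23.8 CPM with ISRIB added (adjusted p = 0.00871). MTTP was also called lower on adding nelfinavir (-0.40, adjusted p = 0.03). APOA5, a liver apolipoprotein that controls plasma triglyceride, fell from 19.7 to 7.99 CPM with nelfinavir added (adjusted p = 1.83e-06). APOB itself did not pass the test with bortezomib (log2 difference -0.19 ± 0.104, adjusted p = 0.124), and it was lower on adding nelfinavir to bortezomib (-0.59 ± 0.105, adjusted p = 5.95e-05) and on adding ISRIB (-0.52 ± 0.105, adjusted p = 0.000716).

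Transcriptional regulators had 5 of 18 genes higher (27.8%) and 10 lower (55.6%) with bortezomib, beside 27.6% and 25.8% of all genes. With nelfinavir 7 were higher (38.9%) and none was lower, beside 10.4% and 8.84% of all genes. NR0B2, the small heterodimer partner, rose from 35.6 CPM in DMSO to 101 CPM with nelfinavir (adjusted p = 7.89e-16) and 204 CPM with bortezomib (adjusted p = 2.38e-22). CEBPB, a liver and fat cell C/EBP factor, rose from 21.2 to 121 and 115 CPM (adjusted p = 1.3e-12 and 6.88e-13), and with ISRIB added to bortezomib it was lower, at 76.6 CPM (adjusted p = 0.0226). PPARA, a nuclear receptor that binds elements built on AGGTCA, rose from 21.7 to 39.4 CPM with nelfinavir (adjusted p = 0.000545). PPARGC1A, a co-activator of PPARα, stood at 8.21 CPM in DMSO and 0.482 ± 0.563 CPM (SD, n = 4) with bortezomib, a handful of counts per library (adjusted p = 2.5e-09). NR1H4, the bile acid receptor FXR, fell from 19.7 to 11.2 CPM with ISRIB added to bortezomib (adjusted p = 0.000534). EPAS1, a hypoxia-inducible factor, rose there from 94.4 to 173 CPM (adjusted p = 5.02e-08). Both were called in the same direction on adding nelfinavir (log2 changes -0.46 and 0.68, adjusted p = 0.023 and 1.76e-06). FOXA2 and FOXO1, which act on liver metabolic genes, rose on adding nelfinavir to bortezomib, from 30.7 to 75.2 CPM and from 4.99 to 15.4 CPM (adjusted p = 1.88e-11 and 2.06e-06), back to near their DMSO means of 78.6 and 14.7 CPM. On adding ISRIB, FOXA2 was also called higher (log2 change 0.67, adjusted p = 3.27e-05) and FOXO1 was not (0.54, adjusted p = 0.164).

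**Figure D4:**
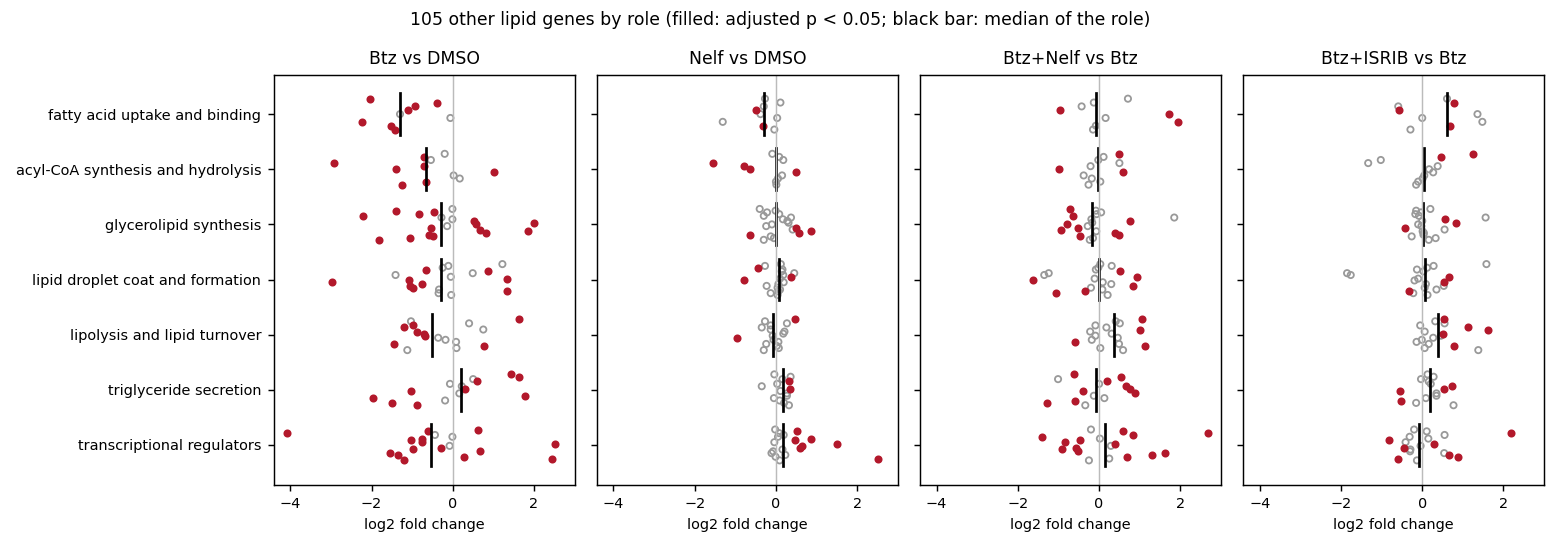
Log2 fold change (horizontal axis) of the 105 tested genes of the lipid list, one point per gene, by role, in 4 comparisons; filled points passed the test at an adjusted p under 0.05 and black bars are the median of a role. With bortezomib (Btz) and TMM scaling the role medians run from -1.30 for uptake and binding to 0.19 for triglyceride secretion, while with nelfinavir (Nelf) they lie between -0.30 and 0.18.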

How the data were processed

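RNA was extracted from HepG2 cells and 3′ mRNA-Seq libraries (QuantSeq FWD, single-end reads) were sequenced in 24 samples. The authors trimmed reads with cutadapt 2.8, aligned them with STAR to hg19 in the nf-core workflow and deposited raw read counts per gene for Ensembl GRCh37 genes. Which program counted the reads, with which strand setting, and whether molecular identifiers were used is not given in the sources used here. Reads come from transcript ends, so counts were not divided by length, and levels were not compared between genes.

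Counts were analysed with edgeR 4.0.16 and limma 3.58.1 under R 4.3.3, on all 24 libraries in 1 model with a coefficient for each of the 6 groups. The filterByExpr function (count 5, total count 25) removed low genes, and after TMM scaling the quasi-likelihood F-test of edgeR was applied, adjusted by Benjamini-Hochberg over 12685 genes and a threshold of 0.05. CPM used TMM-scaled library sizes, and log2 CPM a prior count of 2. The 95% intervals are of the log2 fold change. DESeq2 1.42.0, RLE factors, library totals alone, other filters, a replicate block, only the groups compared and leaving out each replicate were alternatives. Replicates of a group all differed by more than counting noise (lowest chi-square per degree of freedom 2.14), so none was counted as a repeat of another. The authors call them biological replicates and the labels number them, without saying what separates them. The p-values therefore measure the spread between these libraries. Counting error on single values covers counting only.

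Members and lists were chosen with earlier results of these data known. All 10 genes are named, and from the lipid list up to 4 genes per direction and comparison with the largest change among those called and at 5 CPM or more in 1 of the compared groups. CD36, PLIN3, APOB, the ACOT genes and the triglyceride secretion genes with bortezomib were named outside this rule after their values were seen. Of the 124 listed genes 117 were in the file, 3 of them under another symbol. Sequence matches between transcript ends were found with BLAST 2.17.0 over the last 500 bases (at least 80 bases at 97% identity).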

Additional observations from a re-analysis of the deposited data

Results flagged for a closer look

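In DGAT2, ISRIB replicate 3 stood apart at 87.3 CPM from the other libraries of its group at 79.6 to 80.7 CPM. In ACSL1, replicate 4 of bortezomib with nelfinavir stood apart at 24.8 CPM, against 35.2 to 37.2 CPM. These were 2 of 60 groups looked at, where 3 would be set apart by chance.

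The change on adding nelfinavir differed with and without bortezomib, on the log2 scale, by -1.82 for DGAT2, -0.97 for ACSL5, -0.73 for PLIN2 and -0.57 for CIDEB. In the lipid list it differed by 2.58 for PPARGC1A, 1.72 for FOXO1, 1.43 for DDHD1, 1.13 for AGPAT5, -2.26 for CEBPB, -1.49 for APOA5, -1.35 for GK and -1.14 for HNF4A. The change on adding ISRIB differed by -1.58 for DGAT2 and -0.56 for PLIN2, and in the lipid list by 2.57 for PPARGC1A, 1.28 for PDIA3, 1.27 for PNPLA3, 1.22 for ACSS2, -0.76 for NR1H4 and -0.60 for HNF4A. Each difference is the interaction term of edgeR's model, and DGAT2 and ACSL5 were among the genes selected for a fall, so their values are descriptions. Both PPARGC1A terms rest on the same bortezomib mean of 0.482 CPM, a handful of counts per library. Their SEs were 0.596 for nelfinavir and 0.62 for ISRIB, and the co-treatment means were 3.12 and 2.24 CPM. HNF4A, a liver receptor that binds elements built on AGGTCA, stood at 107 CPM in DMSO, 160 CPM with nelfinavir, 86.7 CPM with bortezomib and 58.8 CPM with both.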

How the results depend on the processing

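Over the alternatives other than leaving out a replicate, 468 log2 changes of the 10 genes stayed on the same side of the threshold, 19 passed it newly and 3 no longer passed it. Without 1 replicate these counts were 699, 9 and 12. The sign changed in 11 and 34 of these, all of them called in neither fit and at most 0.06 in size with all libraries and the reported settings. Counts over the 10 genes include DGAT2, FABP1 and ACSL5, which were selected for a fall, and so say nothing of stability. For the interaction of ISRIB with bortezomib 2 of the 10 were past the threshold, 4 with no filter, 5 with the replicate block, 5 with only the groups compared and 5 with DESeq2. This ranged from 2 to 4 on leaving out a replicate, 4 being reached without bortezomib replicate 2 and without replicate 3 of bortezomib with ISRIB. Among the 7 genes with no stated prior observation the count was 1 (PLIN2). It was 2 with no filter and 3 with the replicate block, with only the groups compared and with DESeq2. It was 2 without either of the replicates just named. ACSL3 and DGAT1 were the genes that crossed, and the cause was not tested. Of the lipid list 0 genes were called for ISRIB versus DMSO, and 2 with no filter and 2 with only the groups compared, both lower. Leaving out a replicate gave 2 to 2 of the 7 called for nelfinavir, 2 to 3 on adding nelfinavir to bortezomib, 2 to 4 on adding ISRIB and 1 to 2 for the interaction of nelfinavir. Replicate numbers are not said to mark a shared culture, so the block was used as an alternative alone. After removal of group means a correlation above 0.1 was seen in 10 of 60 same-number pairs and in 7 of 180 others. It was thus more frequent among same-number pairs, and whether these libraries share an origin was not tested. CIDEC, with 11 to 76 counts per library, was the least counted of the 10, and what limits its precision was not tested.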
